A study of Homo sapiens with 12 samples.

Results

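The comparison described here is that of YAP and TAZ knockdown with control siRNA in MCF10A cells that received no kinase inhibitor. MCF10A is a non-tumorigenic human mammary epithelial cell line with many basal features. The members are the 6 of 12 poly(A) RNA sequencing libraries whose labels give DMSO as the treatment, 3 with siRNAs against YAP and TAZ and 3 with control siRNA. All genes in the count table were considered, and 16491 of its 46931 genes had enough reads to be tested.

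Every group was labelled wild type, and knockdown was by transient transfection, not by a deleted allele. The control group received 22 nM control siRNA, and the knockdown group received siRNAs against YAP and TAZ at 11 nM. The labels do not say whether 11 nM is the amount of each siRNA or of both together, nor which of the 2 siRNA sets went into which library. At 48 h the medium was changed to one with DMSO, the solvent control, and cells were harvested 6 h later, 54 h after transfection. The other 6 libraries had the same siRNAs but 5 µM XMU-MP1, an inhibitor of the kinases MST1 and MST2, in place of DMSO. The libraries of a group carry the letters a, b and c, and nothing in the labels says whether they came from separate cultures. The p-values therefore measure the spread between these libraries, which may be in part technical.

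YAP and TAZ are transcriptional coactivators that reach DNA through TEAD transcription factors. Hippo signalling runs through the kinase pair MST1 and MST2 to LATS1 and LATS2, whose phosphorylation of YAP and TAZ holds these coactivators in the cytoplasm. In epithelia, active YAP and TAZ are known for promoting proliferation and for holding cells in a basal, undifferentiated state, and the study's title concerns repression of the p63 isoform deltaNp63 by a non-canonical branch of the pathway.

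Promoter sequences of 6 genes are shown because motif counts of their families are described below. They are a known YAP and TAZ target, 1 mitotic gene, 1 replication gene and 3 genes of the cornified envelope. Each is the 250 bases before the gene's start in RefSeq on GRCh38.p14, read 5′ to 3′ on the gene's strand. CCN2 lies at chr6:131951373-131951622 on the minus strand, and the capitals mark GGAATG, the core letters bound by TEAD factors. CDCA8 lies at chr1:37692266-37692515 on the plus strand, with capitals for the CCAAT box (here as its complement ATTGG) and for the cell cycle homology region TTTGAA, which overlaps the last of them. MCM7 lies at chr7:100101398-100101647 on the minus strand, with capitals for the E2F letters TTTNNCGC, the first in its complement. SPRR1B at chr1:153030953-153031202, SPRR1A at chr1:152983831-152984080 and IVL at chr1:152908296-152908545 are on the plus strand, with capitals for the AP-1 letters TGANTCA and, in the first 2 of these genes, for GGAATG.
CCN2: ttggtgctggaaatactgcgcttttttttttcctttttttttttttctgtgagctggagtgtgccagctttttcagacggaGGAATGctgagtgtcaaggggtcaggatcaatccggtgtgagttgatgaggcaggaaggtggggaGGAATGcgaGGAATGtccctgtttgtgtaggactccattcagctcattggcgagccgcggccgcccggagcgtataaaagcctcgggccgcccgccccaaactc
CDCA8: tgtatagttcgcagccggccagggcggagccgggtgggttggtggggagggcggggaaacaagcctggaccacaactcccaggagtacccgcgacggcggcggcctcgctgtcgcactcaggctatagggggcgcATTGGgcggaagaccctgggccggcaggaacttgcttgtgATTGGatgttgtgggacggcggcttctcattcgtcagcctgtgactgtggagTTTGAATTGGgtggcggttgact
MCM7: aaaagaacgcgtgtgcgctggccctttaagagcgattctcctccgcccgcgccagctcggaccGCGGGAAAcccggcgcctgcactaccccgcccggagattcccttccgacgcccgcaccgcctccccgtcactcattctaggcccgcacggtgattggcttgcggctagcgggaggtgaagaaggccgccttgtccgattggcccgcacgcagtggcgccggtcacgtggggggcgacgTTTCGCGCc
SPRR1B: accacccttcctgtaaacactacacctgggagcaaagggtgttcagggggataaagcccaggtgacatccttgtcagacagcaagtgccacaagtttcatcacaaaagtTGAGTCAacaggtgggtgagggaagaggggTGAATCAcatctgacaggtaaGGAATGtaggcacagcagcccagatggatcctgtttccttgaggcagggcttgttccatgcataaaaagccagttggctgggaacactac
SPRR1A: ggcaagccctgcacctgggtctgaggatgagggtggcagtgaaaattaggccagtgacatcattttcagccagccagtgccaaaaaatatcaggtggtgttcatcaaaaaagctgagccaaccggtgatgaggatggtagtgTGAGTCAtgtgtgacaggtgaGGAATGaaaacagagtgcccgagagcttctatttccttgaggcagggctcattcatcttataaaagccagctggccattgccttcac
IVL: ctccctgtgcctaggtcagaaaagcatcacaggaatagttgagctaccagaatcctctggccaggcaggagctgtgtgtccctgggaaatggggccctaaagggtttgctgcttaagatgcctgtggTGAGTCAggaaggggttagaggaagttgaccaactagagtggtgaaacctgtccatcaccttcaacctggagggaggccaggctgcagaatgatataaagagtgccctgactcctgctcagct
A match of letters is a description and does not show that a factor is bound there.

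Of the knockdown libraries 2 were shallower than any control library, with 25246464, 48112769 and 58389794 counts against 55975525, 67953633 and 62607442. Ribosomal RNA genes took 8.35%, 3.64% and 1.86% of counts in knockdown libraries a, b and c and 2.15%, 1.05% and 1.32% in the control libraries. That share moved with the groups in 2 of the 3 knockdown libraries, and its part in the results was not tested. With the ribosomal RNA genes left out, 3552 genes were called higher and 3797 lower. Across genes, log counts correlated more closely within the control group and within the knockdown group than between them.

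YAP1 (gene 10413, chr11:102109957-102233424, plus strand, GRCh38.p13) was at 218, 240.5 and 207 CPM (counts scaled to library size) in control libraries a, b and c and at 14.4, 9.82 and 8.39 in knockdown libraries a, b and c. WWTR1 (gene 25937, chr3:149517229-149724788, minus strand), which encodes TAZ, was at 37.6, 25.9 and 41.0 CPM against 4.90, 4.82 and 3.91. Both transcripts were low in every knockdown library, with no overlap between groups. YAP1 kept 4.9% and WWTR1 13.1% of its control level (exact two-sided permutation p = 0.1 each, the smallest that 3 against 3 libraries allow). In edgeR's quasi-likelihood test, with Benjamini-Hochberg adjustment over all genes tested, the log2 fold changes were -4.36 ± 0.23 (SE, adjusted p = 7.38e-05) and -2.94 ± 0.23 (adjusted p = 0.000181). Every adjusted p below is from that test, a gene is called where it is under 0.05, and fold changes are knockdown over control.

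The knockdown moved a large part of the transcriptome. Of the 16491 genes 7320 (44.4%) were called, 3691 higher (22.4%) and 3629 lower (22%), and 9617 (58.3%) had no overlap between the 3 and 3 libraries. At least 2-fold, 2322 rose (14.1%) and 2362 fell (14.3%), and 669 rose and 505 fell at least 8-fold. The median log2 fold change of all genes was 0.014, and with scaling to library totals alone it was -0.189 and the split became 2694 higher and 4327 lower. A gene list is therefore read against a background in which more than 1 gene in 5 was called in each direction. Where a count of called members stands alone below, it is to be set beside these 22.4% higher and 22% lower. The plot of fold change against level shows the gene families at the 2 ends of this range.

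**Figure D1:**
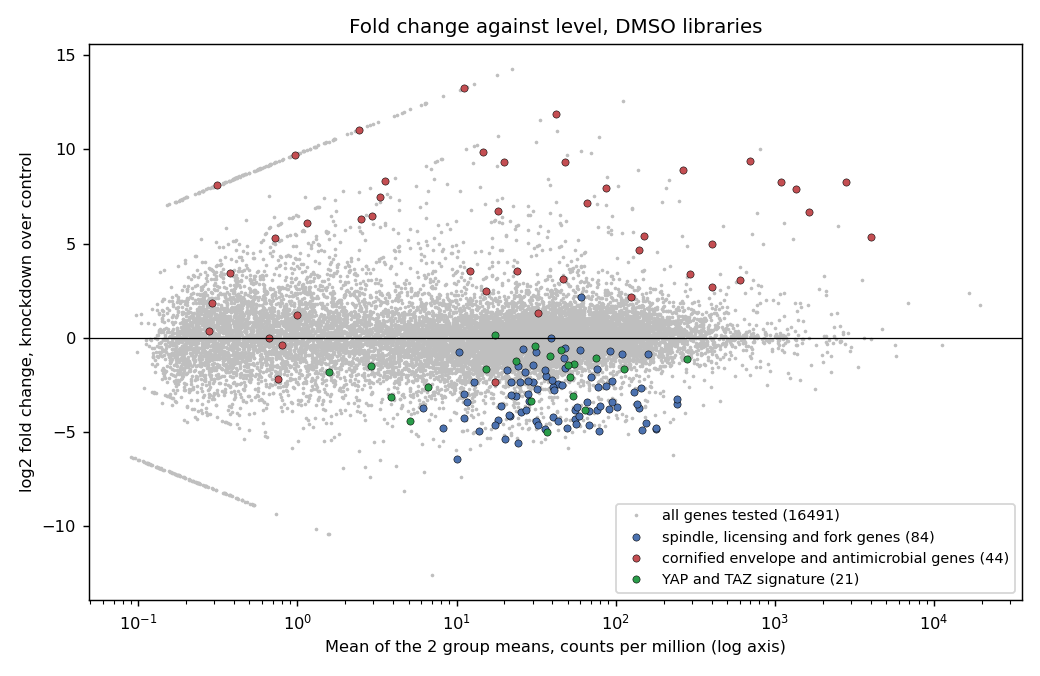
Each point is 1 of the 16491 genes tested, with the mean of the 2 group means in CPM on a log x axis and the log2 fold change (knockdown over control, DMSO) on the y axis. Spindle, licensing and fork genes (blue) lie mostly below 0, with POLD4 at 2.19, cornified envelope and antimicrobial genes (red) lie mostly above 0, and the straight streaks at the top and bottom left are genes with 0 counts in all 3 libraries of a group, whose fitted fold is not a measured size.

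The transcripts of the factors that YAP and TAZ work with shifted as well. Of the 10 listed siRNA targets and TEAD partners in the table, 9 were tested, 7 fell and 1 rose. The falls include the siRNA targets themselves, and among the other 7 genes tested 5 fell, with a median log2 fold change of -0.95. TEAD4 was at 38.0, 39.0 and 45.3 CPM in control and 7.23, 2.55 and 3.50 in knockdown libraries (9.34-fold lower, adjusted p = 0.000852). TEAD3 was at 50.4, 58.1 and 46.9 against 197, 221 and 228 CPM (4.16-fold higher, adjusted p = 9.77e-05). The 2 paralogues moved in opposite directions, and neither overlapped between groups. TEAD1 went from 122, 106 and 100.3 CPM to 68.4, 48.6 and 52.4 (1.94-fold lower, adjusted p = 0.0032). The Vestigial-like proteins compete with YAP and TAZ for TEADs. VGLL1 was at 8.62, 4.62 and 1.91 CPM against 0.381, 0.167 and 0.212 (20.7-fold lower, adjusted p = 0.00236, log2 -4.37, and -3.74 without control library a), and VGLL3 at 29.9, 22.9 and 20.1 against 9.56, 5.64 and 5.38 (3.56-fold lower, adjusted p = 0.00238). In both cases all knockdown libraries were below all control libraries.

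In the Hippo kinase cascade itself more genes fell than rose. Of 22 kinases and adaptors in the table, 21 were tested, and 10 fell (47.6%, against 22% of all genes). The 6 that rose (28.6%) are a share near the 22.4% of all genes. The count of rises was 3 without control library a, without control library c or without knockdown library b, and 2 with scaling to library totals alone. WWC2, a scaffold of the LATS kinases, was at 36.7, 43.3 and 41.4 CPM against 12.3, 11.3 and 11.6 (3.45-fold lower, adjusted p = 0.000171). Its X-linked paralogue WWC3 was at 2.29, 4.80 and 2.36 CPM against 25.7, 37.1 and 28.5 (9.64-fold higher, adjusted p = 0.000526). As with TEAD3 and TEAD4, paralogues of 1 family went opposite ways without overlap. MOB1A, the LATS cofactor, was at 139, 135 and 115 CPM against 53.2, 57.1 and 58.7 (2.30-fold lower, adjusted p = 0.000346). MAP4K4, an upstream kinase that can act in parallel to MST1 and MST2, was at 233, 256 and 292 CPM against 565, 477 and 767 (2.32-fold higher, adjusted p = 0.00248).

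Known YAP and TAZ target genes fell and none of the list rose. All 22 genes of a published signature were in the table, 21 were tested, and 17 fell (81%, against 22% of all genes), with a median log2 fold change of -1.63. AJUBA, a LIM protein that binds LATS kinases, was at 132, 131 and 93.6 CPM against 8.99, 8.94 and 7.58 (14-fold lower, adjusted p = 6.04e-05). FJX1, the human counterpart of the fly gene four-jointed, was at 56.8, 50.2 and 52.0 against 7.56, 2.82 and 5.66 (9.99-fold lower, adjusted p = 0.000503). CCN2 (gene 1490, chr6:131948176-131951372), a secreted matricellular protein, was at 4.77, 6.94 and 9.04 CPM against 1.24, 0.543 and 0.602 (8.92-fold lower, adjusted p = 0.00154). No library of one group reached the other for these 3 genes. Members not called included NT5E, at 45.7, 48.7 and 70.6 CPM against 38.1, 9.65 and 57.6, and GADD45A, at 50.6, 29.3 and 27.7 against 32.1, 24.8 and 22.8. Their groups overlap, and knockdown library b was the lowest of all 6 for NT5E. Of the 12 called members with a promoter in the RefSeq table, 4 (33.3%) hold GGAATG on either strand, among them CCN2 with 3 copies, against 11.9% of all 27305 promoters. In the last 120 bases it was 1 of 12 (8.33%), against 5.64% of all promoters. A like share of genes that rose, 4 of 14 called cornified envelope genes (28.6%), holds the same letters.

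**Figure D2:**
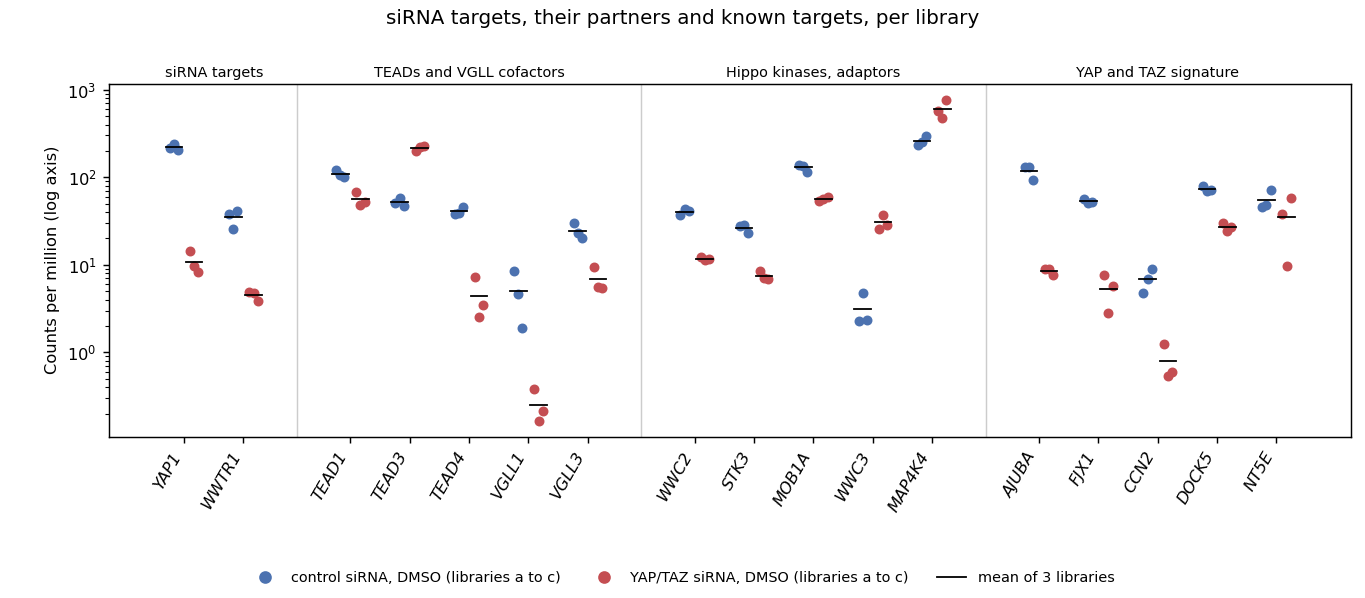
Each point is the level of a gene in 1 library in CPM, on a log axis, for control siRNA (blue) and YAP and TAZ siRNA (red), both in DMSO, and the black lines are means of 3 libraries. TEAD3, WWC3 and MAP4K4 lie higher after knockdown, the other genes shown lie lower without overlap, and NT5E overlaps between groups.

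Most genes of DNA replication and mitosis fell. DNA replication starts when the origin recognition complex, CDC6 and CDT1 load MCM helicases, which the kinase CDC7 with DBF4 then fires. Of 27 licensing and firing genes all were tested, 26 fell (96.3%, against 22% of all genes) and none rose, with a median log2 fold change of -3.60. CDC7 was at 21.4, 19.9 and 22.4 CPM against 0.904, 1.19 and 1.24 (18.9-fold lower, adjusted p = 6.08e-05). MCM7 (gene 4176, chr7:100092728-100101397), a helicase subunit, was at 458, 435 and 428 CPM against 58.9, 45.2 and 34.9 (9.52-fold lower, adjusted p = 0.000104). ORC6, a subunit of the origin complex, was at 38.8, 31.9 and 34.4 CPM against 3.33, 2.80 and 2.57 (12.1-fold lower). The spread within each group was small beside these gaps. Histone genes, many of which are expressed in S phase, did not share that direction, since 13 of 25 rose and 4 fell (median 1.22), with near-identical copies that make single counts uncertain. In these bulk libraries, fewer cycling cells and less RNA per cell cannot be told apart.

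The replication fork followed the same direction. Of 29 fork and polymerase genes, 28 fell and 1 rose, with a median log2 fold change of -2.34. FEN1, the flap nuclease that trims Okazaki fragments, was at 204, 243 and 237 CPM against 36.0, 25.2 and 31.5 (7.39-fold lower, adjusted p = 8.31e-05). The exception was POLD4, the smallest subunit of DNA polymerase delta, at 22.3, 11.7 and 31.6 CPM in control and 111, 126 and 63.7 in knockdown libraries (4.57-fold higher, adjusted p = 0.00493). Of 21 genes of nucleotide supply, 20 fell. RRM1, the large subunit of ribonucleotide reductase, was at 285, 262 and 284 CPM against 59.7, 53.5 and 50.6 (5.08-fold lower, adjusted p = 6.04e-05). The member not called was RRM2B, a p53-responsive small subunit, whose control libraries spread over 93.6, 115 and 21.5 CPM and overlap the knockdown values of 13.7, 45.9 and 51.0. Among 22 genes of chromatin replication and maintenance, 19 fell. LMNB1, lamin B1 of the nuclear lamina, was at 230.5, 227 and 243 CPM against 9.47, 4.84 and 6.48 (34.0-fold lower, adjusted p = 7.17e-05), and UHRF1, which brings DNA methyltransferase to replicated DNA, at 159, 156 and 184 against 14.9, 9.44 and 11.0 (14.1-fold lower).

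Mitotic genes fell as well. All 28 genes of the spindle and cytokinesis list were tested and all 28 fell, also in each of the 6 fits that left out 1 library, with a median of -4.06. CDCA8 (gene 55143, chr1:37692516-37709719), the chromosomal passenger protein borealin, was at 106, 109 and 117 CPM against 6.71, 5.81 and 6.09 (17.9-fold lower, adjusted p = 2.59e-05). KIF11, the motor that separates spindle poles, was at 105, 104 and 101 CPM against 8.56, 7.73 and 5.68 (14.2-fold lower). The summed share of these 28 genes in FPKM, a unit per length, was 0.254%, 0.274% and 0.282% in control and 0.0193%, 0.0142% and 0.0131% in knockdown libraries (exact permutation p = 0.1, the smallest possible). Of 33 kinetochore and checkpoint genes in the table, 32 were tested and 30 fell (median -3.67). MAD2L1, which carries the checkpoint signal from unattached kinetochores, was at 93.9, 75.7 and 75.0 CPM against 4.85, 3.32 and 3.03 (22.1-fold lower). Of 18 condensin and cohesin genes 15 fell (median -2.44), and 1, STAG2, rose, a call lost when any 1 of the 6 libraries was left out. BUB3, which also has roles outside mitosis, was not called, at 143, 149 and 147 CPM against 113, 128 and 130.1 (log2 -0.24, adjusted p = 0.0905), though its groups do not overlap.

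Of 21 cyclins, CDKs and CDC25 phosphatases, 17 fell and 1 rose (median -3.31), the D-type cyclin gene CCND3, whose call was lost without control library b. CDK1, the mitotic kinase, was at 112, 124 and 111 CPM against 6.28, 4.51 and 3.03 (25.4-fold lower, adjusted p = 9.77e-05), and CDK4, the D-cyclin kinase of G1, at 166, 122 and 134 against 39.0, 30.2 and 32.6 (4.14-fold lower, adjusted p = 0.000203). CDK6, the other D-cyclin kinase, was not called. Its control libraries read 147, 3.81 and 138 CPM against 37.6, 36.7 and 45.5, so that control library b alone lay below the knockdown group, and without it CDK6 was called lower. Of 10 CDK inhibitors and RB family genes in the table, 8 were tested, 3 rose and 3 fell (37.5% each, against 22.4% and 22% of all genes). CDKN1A, which encodes p21, was at 298, 352 and 420.0 CPM against 1643, 2081 and 1707 (5.08-fold higher, adjusted p = 0.000144). CDKN1C, which encodes p57, had 0 counts in all control libraries and 1.85, 1.29 and 1.10 CPM after knockdown, at least 31.4-fold higher against a floor of 3 counts per library. CDKN2C, which encodes p18, was at 24.3, 27.6 and 27.8 CPM against 3.62, 3.76 and 3.35 (7.43-fold lower, adjusted p = 8.06e-05). Of 16 E2F, MYB and FOXM1 factors tested, 11 fell and 1, LIN37, rose. FOXM1, an activator of mitotic genes, was at 188, 238 and 231 CPM against 16.5, 7.02 and 8 (21.1-fold lower, adjusted p = 0.00022). All 18 genes of homologous recombination and the Fanconi pathway fell (median -4.03).

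Promoter letters were counted in these families. Of 24 called spindle genes with a promoter in the table, 14 (58.3%) hold TTTGAA and 19 (79.2%) hold CCAAT, against 13.6% and 33% of all promoters. Among 24 called kinetochore genes, 5 (20.8%) hold TTTGAA and 14 (58.3%) hold CCAAT. The E2F letters TTTNNCGC were in 7 of 21 licensing genes (33.3%) and 9 of 24 fork genes (37.5%). They were in 5.93% of all promoters and 8.74% of those of tested genes. The E2F letters were not counted in the mitotic lists, nor TTTGAA and CCAAT in the replication lists. In the CDCA8 sequence above, TTTGAA starts 23 bases before the gene's start, and in MCM7 the nearer E2F match starts 9 bases before it. Both strands were searched, and these shares are descriptions with no test.

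The opposite movement was in many, not all, genes of the differentiated epidermis. The cornified envelope is a shell of crosslinked proteins under the membrane of dying keratinocytes. Of 34 precursor genes in the table, 27 were tested, 21 rose (77.8%, against 22.4% of all genes) and none fell. Among the 27, 4 had 0 counts in all control libraries. They passed the filter only through their level after knockdown and could only be called higher. Much the same holds for genes at or near 0 in control, here and in the lists below. Those near 0 were not counted, so these shares are descriptions. The median log2 change of the 27 was 5.40, and 4.64 where a gene at 0 in control was set to its floor. SPRR1A (gene 6698, chr1:152984081-152985814), a small proline-rich envelope protein, was at 2.26, 1.76 and 2.16 CPM against 2029, 1282 and 868 (676-fold higher, adjusted p = 6.04e-05). IVL (gene 3713, chr1:152908545-152911886), involucrin, an early scaffold of the envelope, was at 13.8, 10.4 and 8.33 CPM against 203, 210.5 and 397 (24.9-fold higher, adjusted p = 0.000171). EVPL, envoplakin, which anchors that scaffold, was at 47.1, 43.5 and 43.5 CPM against 256, 194 and 159 (4.54-fold higher). The order of knockdown libraries was not shared, since library a was highest for SPRR1A and library c for IVL. SPRR1A and SPRR1B belong to a family of close copies, and how reads were shared between copies is not given in the sources used here. The list's summed share of FPKM was 0.0435%, 0.0335% and 0.0282% in control and 1.95%, 1.32% and 1.65% in knockdown libraries. A member not called was TGM2, the widely expressed transglutaminase, at 20.5, 17.7 and 49.3 CPM against 3.33, 1.44 and 12.5 (adjusted p = 0.0542), lower in all 3 knockdown libraries and called lower without knockdown library c and under DESeq2 and limma. FLG, filaggrin, had at most 61 counts in a library and was not called (log2 -0.01, adjusted p = 0.994). HRNR and TCHH, also at low counts, were not called, and LORICRIN, with 0 counts, was not tested.

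Of 14 called envelope genes with a promoter in the table, 7 (50%) hold the AP-1 letters TGANTCA, against 6.6% of all promoters. In the last 120 bases 3 of 14 (21.4%) do, against 3.31%. In the sequences above, SPRR1B holds TGANTCA 141 and 111 bases before its start and GGAATG 90 bases before it, and SPRR1A holds the 2 motifs 108 and 87 bases before its start. Of 18 called genes of epidermal proteases and inhibitors with a promoter, 3 (16.7%) hold TGANTCA, and 1 (5.56%) does in the last 120 bases. Among 12 called antimicrobial genes with a promoter, 3 (25%) hold it. The letters AACCNGTT of grainyhead factors were in 0 of the 14 envelope promoters and 1 of the 18 protease and inhibitor promoters (5.56%), against 1.48% of all promoters.

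Of 20 suprabasal and stress keratins in the table, 12 were tested, 10 rose (83.3%, against 22.4% of all genes) and none fell (median 2.95). KRT1 was not tested, with at most 43 counts in a library, and KRT10 was called higher (log2 2.81). KRT78, a type II keratin, was at 0.166, 0.509 and 0.281 CPM against 20.6, 16.3 and 16.5 (54.9-fold higher, adjusted p = 0.000171). KRT16, a keratin of wounded and hyperproliferative epidermis, was at 22.1, 15.8 and 9.16 CPM against 2527, 699 and 1358 (97.4-fold higher, adjusted p = 0.000333). Its partner KRT6A was at 1119, 1511 and 1596 CPM against 6585, 1599 and 2344, and was not called (adjusted p = 0.0743) although its groups do not overlap. Knockdown library a, which is the shallowest and has the largest share of ribosomal RNA, was highest for both. Of 10 basal and simple keratins tested, 3 fell (30%, against 22% of all genes) and 1, KRT19, rose. Without knockdown library a 6 fell, and the call of KRT19 was lost without that library, knockdown library c or control library b. Of the basal-layer keratins, KRT14 and KRT15 were not called, with KRT14 at 49.3, 73.2 and 36.6 CPM against 46.4, 8.90 and 21.7 (adjusted p = 0.178) and KRT15 at 628, 538 and 202 against 3242, 1035 and 649 (adjusted p = 0.0628), both named after their values were seen. KRT14 was called lower without knockdown library a, and KRT15 was called higher without knockdown library c and with the letters as a replicate block (adjusted p = 0.0105). KRT5, also of the basal layer, was at 4601, 5490 and 4869 CPM against 2620, 1112 and 1372 (2.93-fold lower, adjusted p = 0.00718). KRT18, a keratin of simple epithelia, was at 2017, 1868 and 1777 CPM against 529, 483 and 546 (3.63-fold lower, adjusted p = 8.92e-05), while KRT7, another simple keratin, was not called at 2432, 2450 and 3064 against 3562, 2787 and 3079.

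Genes that build the lipid barrier rose with the proteins. Of 37 barrier lipid genes in the table, 34 were tested, 26 rose (76.5%, against 22.4% of all genes) and 2 fell (median 3.14). Among the 34, 4 had 0 counts in all control libraries and could only be called higher. ABCA12, the transporter that loads lamellar bodies, was at 24.6, 17.3 and 12.5 CPM against 564, 561 and 494 (29.7-fold higher, adjusted p = 8.06e-05). SULT2B1, a cholesterol sulfotransferase, was at 2.01, 0.881 and 1 CPM against 548, 312 and 439.7 (335-fold higher, adjusted p = 7.53e-05). CERS3, which makes ceramides with ultra-long acyl chains, had 0 counts in all control libraries and 30.5, 34.9 and 68.8 CPM after knockdown, at least 990.3-fold higher against the floor of 3 counts per library. CYP4F22, the hydroxylase acting on those acyl chains, likewise went from 0 counts to 26.8, 11.4 and 25.3 CPM, at least 468-fold higher. The 2 members that fell were ELOVL6, which elongates shorter fatty acids, at 179.5, 189 and 155 CPM against 11.6, 19.9 and 24.7 (9.28-fold lower, adjusted p = 0.000259), and DEGS1, the general ceramide desaturase, at 71.5, 91.3 and 90.4 against 28.1, 23 and 26.5 (3.26-fold lower). Neither is specific to the epidermis.

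Shedding of the outer layer depends on proteases, their inhibitors and the desmosomes they cut. Of 39 epidermal proteases and inhibitors in the table, 30 were tested, 25 rose (83.3%, against 22.4% of all genes) and 1 fell (median 4.13). TMPRSS13, a membrane serine protease, was at 4.92, 3.88 and 3.18 CPM against 154, 193 and 200.0 (45.7-fold higher, adjusted p = 4.88e-05). SPINK5, the inhibitor lost in Netherton syndrome, had 0 counts in control libraries and 12.2, 14.8 and 11.4 CPM after knockdown, at least 283-fold higher. BLMH, a protease that breaks down filaggrin to amino acids, fell, from 38.5, 39.5 and 43.0 CPM to 7.99, 8.39 and 7.58 (5.05-fold lower, adjusted p = 8.92e-05). Of 13 desmosome genes tested 9 rose (69.2%) and 2 fell (15.4%, below the 22% of all genes). CDSN, corneodesmosin, found in cornified layers, was at 1.36, 1.10 and 1.37 CPM against 83.8, 65.3 and 116 (69.0-fold higher, adjusted p = 6.04e-05). DSG2, the desmoglein of simple and basal cells, was at 230.4, 235 and 238 CPM against 85.4, 72.4 and 124 (2.50-fold lower, adjusted p = 0.00198). Of 19 tight junction genes tested 11 rose (57.9%) and 1 fell (5.26%). CLDN4, a barrier-forming claudin, went from 229.5, 159.6 and 110.0 CPM to 815, 911 and 751 (4.96-fold higher, adjusted p = 0.00067).

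Transcription factors known to drive epidermal differentiation rose. Of 41 in the table, 38 were tested, 26 rose and 2 fell, OVOL2 and BNC1, the latter's call lost without control library b or c. Among the 38, 2 had 0 counts in all control libraries and could only be called higher. The median log2 fold change was 1.24. GRHL3, a grainyhead factor needed for barrier formation, was at 30.0, 24.4 and 14.8 CPM against 229, 228 and 353 (11.7-fold higher, adjusted p = 0.000283). Its paralogue GRHL1, which acts on desmosomal genes, was at 17.6, 14.5 and 8.69 CPM against 232, 208 and 236 (16.6-fold higher, adjusted p = 0.000115). OVOL1, a repressor of proliferation in suprabasal cells, was at 19.7, 10.2 and 7.24 CPM against 277, 198 and 262 (19.9-fold higher, adjusted p = 0.000316). Its paralogue OVOL2 moved the other way, from 9, 10.4 and 7.18 CPM to 1.85, 1.11 and 1.10 (6.63-fold lower, adjusted p = 0.000729). TP63, the gene of the study's title, was at 30.8, 31.1 and 24 CPM against 27.3, 11.7 and 21.1 (log2 -0.52 ± 0.31, adjusted p = 0.216) and was not called. Its groups overlap, and the counts are per gene, so that deltaNp63 cannot be separated from other isoforms. Of 15 retinoid genes tested 8 rose (53.3%, against 22.4% of all genes) and 1 fell (6.67%). RARG, the main retinoic acid receptor of skin, was at 71.5, 81.8 and 64.7 CPM against 319, 319.5 and 321 (4.40-fold higher, adjusted p = 7.64e-05).

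Surface and defence genes rose as well. Of 17 mucins and surface glycoproteins tested 14 rose and 1 fell, and LYPD3, a surface protein of suprabasal cells, went from 31.0, 31.4 and 37.0 CPM to 2559, 1871 and 2327 (68-fold higher, adjusted p = 2.59e-05). Of 22 antimicrobial genes in the table, 17 were tested, 16 rose (94.1%, against 22.4% of all genes) and none fell (median 6.10). No tested member was at 0 counts in all control libraries. Members near 0 there, such as PGLYRP3 (log2 11.88), passed the filter through their level after knockdown, so the share is a description. S100A8, which forms the metal-binding complex calprotectin with S100A9, was at 35.0, 34.0 and 26.3 CPM against 2967, 2418 and 4388 (103-fold higher, adjusted p = 6.04e-05). LCN2, a siderophore-binding protein, was at 29.3, 26.9 and 19 CPM against 1186, 414 and 755 (31.3-fold higher, adjusted p = 0.000254). The member not called was LTF, lactoferrin, at 2.08, 1.43 and 0.118 CPM against 0.904, 0 and 0. Summed per length, the antimicrobial genes went from 0.204%, 0.177% and 0.138% of FPKM to 7.51%, 5.79% and 9.67% (exact permutation p = 0.1, the smallest possible).

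**Figure D3:**
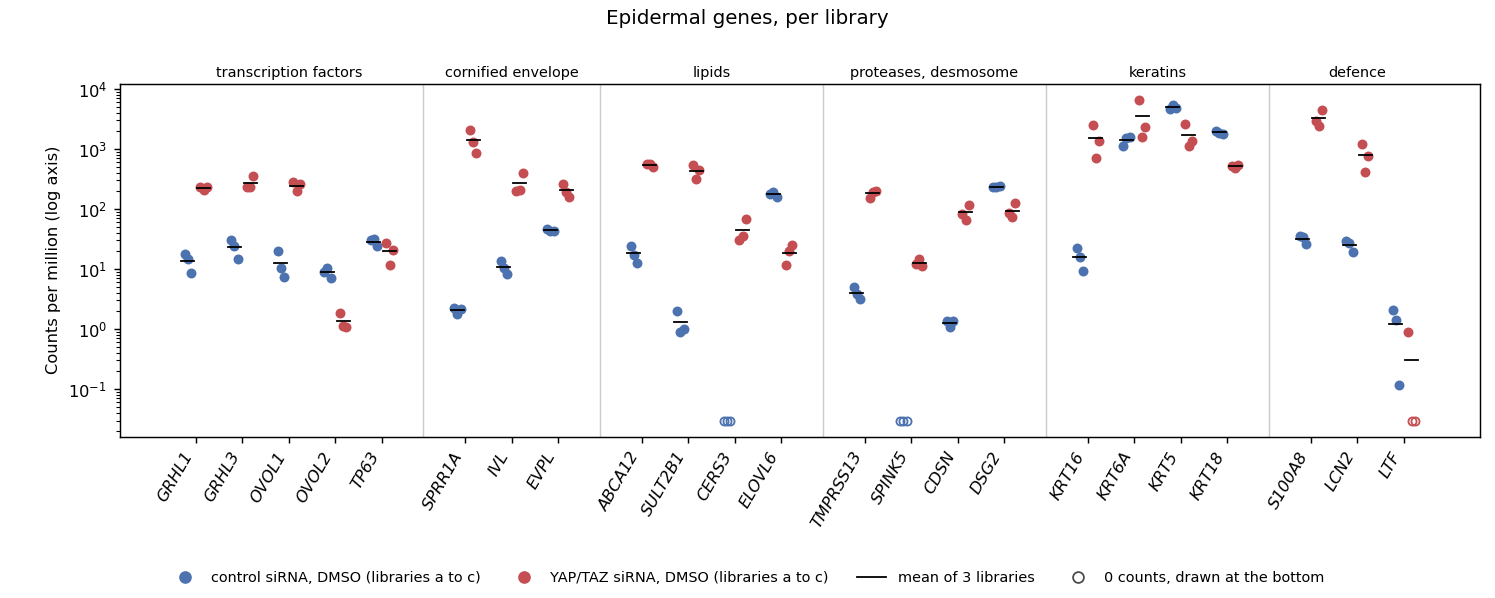
Each point is the level of an epidermal gene in 1 library in CPM, on a log axis, for control siRNA (blue) and YAP and TAZ siRNA (red), both in DMSO, with black lines for means of 3 libraries and open circles at the bottom for 0 counts. OVOL2, ELOVL6, DSG2, KRT5 and KRT18 lie lower after knockdown, TP63 and LTF overlap between groups, KRT6A does not overlap but was not called, and the other genes lie higher.

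Secreted signals and their receptors moved both ways, and their shares are set against the 22.4% higher and 22% lower of all genes. In the IL-1 family 13 of 16 genes were tested, 6 rose (46.2%) and 2 fell (15.4%). Those 2 falls were 0 without control library b and 1 without control library c. IL1RN, the receptor antagonist, was at 4.34, 2.13 and 1.17 CPM against 226, 80.0 and 149 (59.7-fold higher, adjusted p = 0.000533, log2 5.90, and 6.51 without control library a). Among chemokines and cytokines 23 of 29 were tested, 4 rose (17.4%) and 8 fell (34.8%). Without control library a, control library b or knockdown library b 4 fell. CXCL2, a neutrophil chemokine, was at 13.1, 16.6 and 15.8 CPM against 1.67, 1.90 and 1.65 (8.72-fold lower, adjusted p = 0.000115), and CXCL1 of the same cluster at 104, 139 and 112 against 32.5, 13.5 and 38.1 (4.24-fold lower, adjusted p = 0.00405). Of 16 genes of the EGF family tested 5 rose (31.2%) and 4 fell (25%), shares near those of all genes. The falls were 2 without control library a or b. ERBB3, a kinase-impaired receptor for neuregulins, was at 33.0, 31.9 and 24.2 CPM against 345, 434 and 334 (12.5-fold higher, adjusted p = 6.05e-05). Its ligand NRG1 was at 10.3, 13.8 and 14.2 CPM against 0.666, 0.0835 and 1.11 (20.4-fold lower, adjusted p = 0.00411, log2 -4.35, and -5.32 without knockdown library c). HBEGF, a ligand of the EGF receptor, was at 132, 66.8 and 53.3 CPM against 1150, 802 and 1434 (13.4-fold higher, adjusted p = 0.00055). Among other growth factors and receptors 39 of 41 were tested, 6 rose and 8 fell, shares not above those of all genes, and 5 fell without control library b. TGFBR2, the ligand-binding TGF-beta receptor, was at 256, 291 and 278 CPM against 32.4, 29.8 and 22.8 (9.72-fold lower, adjusted p = 6.04e-05). FGFR3 rose and FGFR2 fell, from 5.97, 10.3 and 7.68 CPM to 50.8, 58.2 and 29.9 (5.78-fold, adjusted p = 0.000939) and from 6.97, 8.13 and 5.98 to 1.71, 1.80 and 2.09 (3.76-fold, adjusted p = 0.00113).

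Of 32 matrix and basement membrane genes tested 15 fell (46.9%) and 3 rose (9.38%), against 22% and 22.4% of all genes. THBS1, thrombospondin, a matricellular protein, was at 430.0, 383 and 544 CPM against 10.0, 1.75 and 7.04 (73.4-fold lower, adjusted p = 0.000463). COL4A1, a chain of basement membrane collagen, was at 87.4, 69.9 and 139.9 CPM against 4.66, 3.13 and 6.57 (20.6-fold lower, adjusted p = 0.000272). COL4A5, a chain of another type IV trimer, was at 34.5, 40.5 and 42.0 CPM against 69.4, 79.3 and 81.4 (1.97-fold higher, adjusted p = 0.0012). Of 28 integrin and focal adhesion genes tested 8 fell, a share near that of all genes, and 4 rose, with 2 rises without control library a, control library b or knockdown library c. TNS3, a tensin of focal adhesions, fell from 49.2, 69.0 and 68.3 CPM to 7.99, 7.43 and 13.4 (6.44-fold lower), and ITGB6, an epithelial integrin that activates TGF-beta, rose from 39.5, 58.0 and 43.7 to 136, 149 and 157 (3.13-fold higher). Of 29 actin and SRF target genes tested 10 fell (34.5%, against 22% of all genes) and 1 rose. TAGLN, an actin-binding protein, was at 15.4, 12.1 and 16 CPM against 2.00, 0.940 and 1.80 (9.24-fold lower, adjusted p = 0.000473).

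Of 15 cadherin and mesenchymal genes tested 4 rose (26.7%) and 7 fell (46.7%), against 22.4% and 22% of all genes. The mesenchymal members went both ways. CDH1, E-cadherin, was at 268, 202 and 145 CPM against 712, 579 and 668 (3.18-fold higher, adjusted p = 0.00129). ESRP2, a splicing factor of epithelial cells, was at 106, 102 and 109 CPM against 390.3, 437 and 412 (3.91-fold higher, adjusted p = 6.04e-05). VIM, vimentin, was at 377, 779 and 1293 CPM against 57.6, 32.1 and 155 (10-fold lower, adjusted p = 0.00801, log2 -3.32, and -4.24 without knockdown library c). Its control libraries span a wide range but do not overlap the knockdown libraries. SNAI1, a repressor of E-cadherin, named after its values were seen, was at 4.22, 5.08 and 7.79 CPM against 20.4, 16.2 and 30.6 (3.93-fold higher, adjusted p = 0.00319, and 0.0817 in the fit of 12 libraries), while ZEB1, ZEB2, SNAI2 and CDH13 were not called. EPCAM, an adhesion molecule of simple and progenitor epithelium, fell from 249, 239.9 and 182 CPM to 92.2, 122 and 93.2 (2.18-fold lower, adjusted p = 0.00211).

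Among Notch pathway genes 19 of 25 were tested, 7 rose (36.8%) and 5 fell (26.3%), against 22.4% and 22% of all genes. The rises were 4 without control library b, control library c or knockdown library c, and 3 with scaling to library totals alone, and 8 fell without knockdown library a. NOTCH3, a receptor, was at 1.58, 0.661 and 1.09 CPM against 156, 138 and 158 (136-fold higher, adjusted p = 6.04e-05). NOTCH1, the receptor known for starting keratinocyte differentiation, was at 124, 132 and 139.5 CPM against 57.9, 44.8 and 25.8 (3.08-fold lower, adjusted p = 0.00339). The 2 receptors moved in opposite directions with no overlap between groups. Of 28 Wnt pathway genes tested 6 rose and 5 fell, shares near those of all genes. WNT7B, a Wnt ligand of epithelia, was at 16.9, 32.2 and 35.2 CPM against 165, 169.5 and 272 (7.20-fold higher, adjusted p = 0.000739), and the secreted Wnt antagonist SFRP1 was at 157, 153 and 127 against 20.1, 17.2 and 9.26 (9.42-fold lower, adjusted p = 0.000302).

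Genes of ribosome biogenesis and of one-carbon metabolism fell, and more lysosomal genes rose than fell. All 36 ribosome biogenesis genes were tested, 31 fell and none rose (median -1.24). NPM1, nucleophosmin of the nucleolus, was at 3784, 3431 and 3308 CPM against 1084, 925 and 1022 (3.47-fold lower, adjusted p = 0.000108). The list's share of FPKM was 0.934%, 0.827% and 0.841% against 0.286%, 0.284% and 0.284%. Of 15 genes of serine and one-carbon metabolism 12 fell and 1 rose, and MTHFD2, the mitochondrial folate enzyme, was at 403, 263 and 194 CPM against 53.6, 38.4 and 47.2 (6.18-fold lower, adjusted p = 0.000544). Of 24 transporters tested 7 rose and 7 fell (29.2% each, near the 22.4% and 22% of all genes). SLC7A5, a large neutral amino acid carrier, fell from 2694, 2331 and 2364 CPM to 820.5, 769 and 1182 (2.67-fold lower, adjusted p = 0.00113), and AQP3, the water and glycerol channel of epidermis, rose from 73.9, 109.5 and 53.1 to 4329, 4102 and 6172 (61.8-fold higher, adjusted p = 9.35e-05). Of 30 lysosome and autophagy genes tested 18 rose (60%) and 5 fell (16.7%, below the 22% of all genes), with a median of 0.87. CTSD, the protease cathepsin D, was at 596, 752 and 584 CPM against 3702, 4136 and 2826 (5.52-fold higher, adjusted p = 0.000171), and ULK1, the kinase that starts autophagy, at 29.7, 31.9 and 31.1 against 208, 272 and 317 (8.6-fold higher, adjusted p = 8.06e-05).

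Immediate early and AP-1 genes, which respond to growth factors and stress, rose in 18 of 36 cases (50%) and fell in 6 (16.7%). Of all genes 22.4% rose and 22% fell. EGR3, an early growth response factor, was at 1.06, 0.454 and 0.281 CPM against 77.8, 41.3 and 46.6 (92.5-fold higher, adjusted p = 0.000267, log2 6.53, and 7.21 without control library a). MXD1, a MAX partner that opposes MYC, was at 12.6, 17.6 and 11.2 CPM against 126, 119.9 and 71.8 (7.67-fold higher, adjusted p = 0.000341). ETV5, an ETS factor downstream of ERK signalling, was at 60.2, 48.4 and 39.5 CPM against 8.18, 6.64 and 10.9 (5.75-fold lower, adjusted p = 0.000374).

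**Figure D4:**
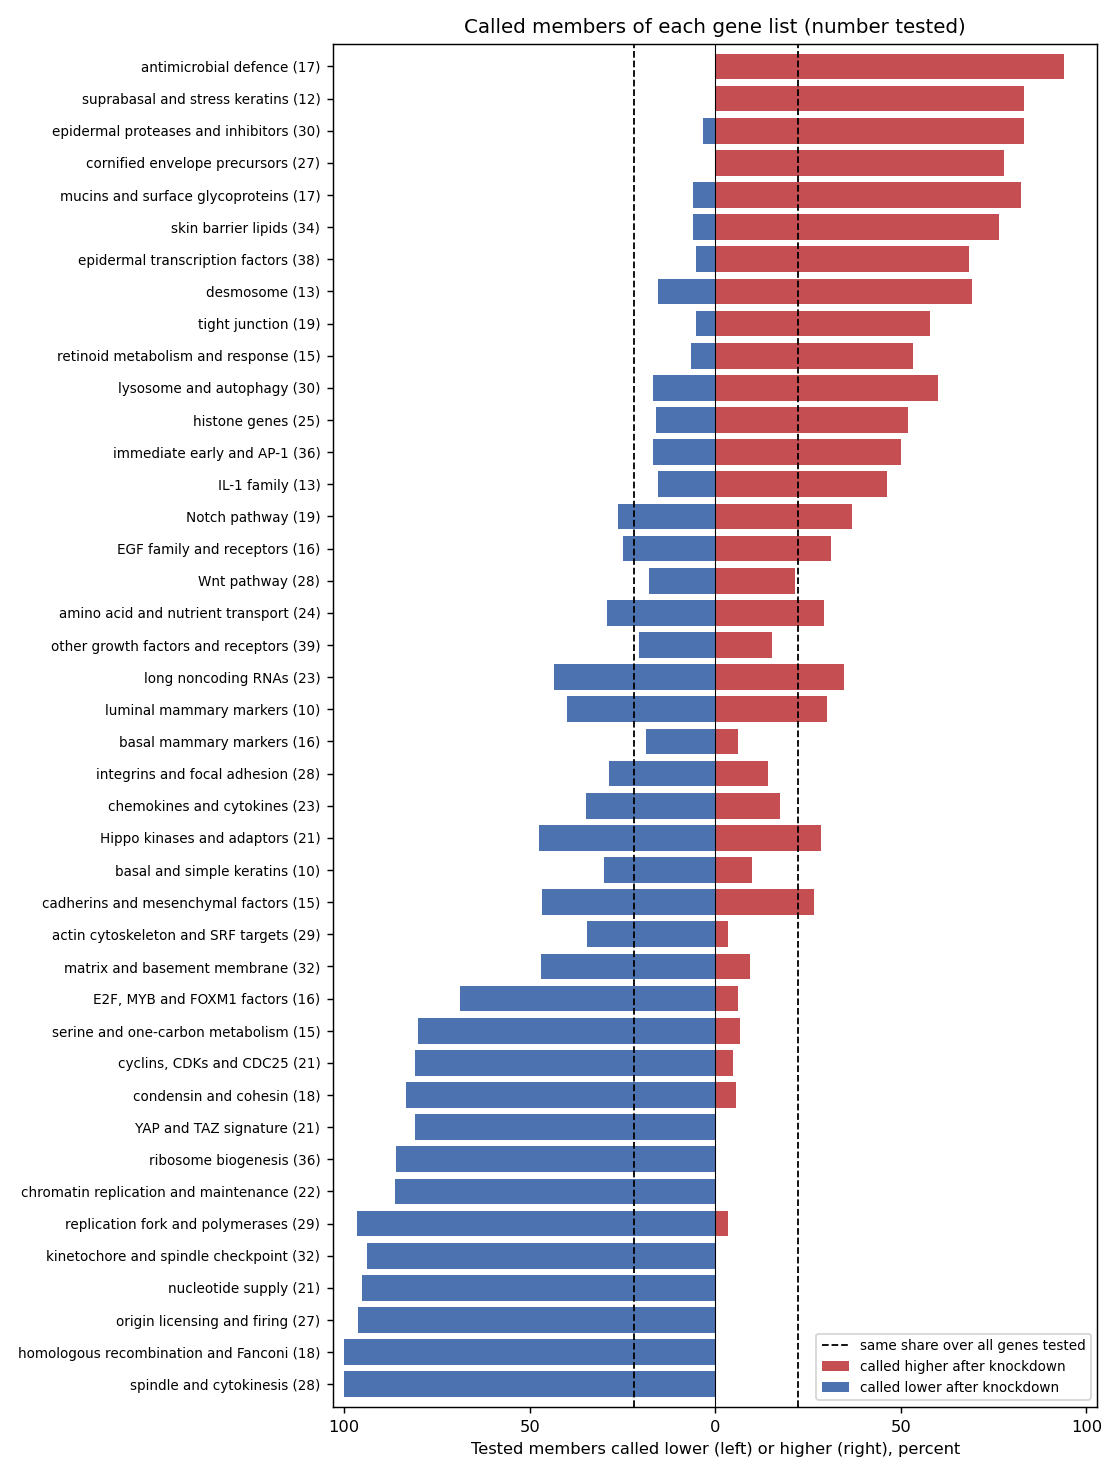
Bars give the percent of tested members of each gene list called higher (right, red) or lower (left, blue) after knockdown in DMSO, with the number tested in brackets and dashed lines at the share over all genes tested, 22.4% higher and 22% lower. Spindle and recombination genes were called lower throughout, and antimicrobial and cornified envelope genes lie at the other end. Notch, Wnt and transporter genes went both ways, with Wnt and transporter shares near the dashed lines.

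Markers of the labelled cell type were present and those of other cell types were low. Of 16 basal mammary markers all were tested, 3 fell (18.8%) and 1 rose (6.25%), shares not above the 22% and 22.4% of all genes. Without knockdown library a 5 fell. Their summed share was 0.788%, 0.956% and 0.926% of FPKM in control and 1.5%, 0.663% and 0.885% in knockdown libraries, with overlap between groups. That sum hides opposite changes, since KRT17 rose (log2 3.08, adjusted p = 0.00146) and KRT5 fell (log2 -1.55, adjusted p = 0.00718). KRT17 is also in the list of suprabasal and stress keratins. Of 10 luminal mammary markers tested 4 fell (40%) and 3 rose (30%), with 1 rise without knockdown library a. Their summed share of FPKM was 0.637%, 0.598% and 0.556% against 0.178%, 0.176% and 0.218%. Of 12 leukocyte markers 4 were tested and 2 rose, CSF1R, from 2.28, 3.84 and 3.63 CPM to 10.8, 27.8 and 15.5, and CD68, a lysosomal protein also found outside macrophages. The leukocyte share was 0.00729% to 0.0102% in control and 0.0103% to 0.0207% in knockdown libraries. The defining genes CD3D, LYZ, HLA-DRA and TYROBP had 0 counts in every library and PTPRC at most 4. Fibroblast markers summed to 0.00104% to 0.00172% against 0.000957% to 0.00242%, with COL1A2 at 0 counts, endothelial markers to at most 0.000246%, with KDR and EMCN at 0, and melanocyte markers to at most 0.000184%, with TYR and DCT at 0.

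To show where the knockdown without inhibitor differs from that with XMU-MP1, the difference of the 2 knockdown effects was tested over all 12 libraries, and the 2 effects share no library. Of 18143 genes tested, 470 differed (2.59%), 156 (0.86%) with a higher effect in XMU-MP1 and 314 (1.73%) with a lower one. Library c of the knockdown with XMU-MP1 was shallow and rich in ribosomal RNA, and without it 1006 of 19211 genes differed (5.24%), 398 higher (2.07%) and 608 lower (3.16%). In the latter fit the knockdown in XMU-MP1 called 3710 genes higher (19.3%) and 3602 lower (18.7%). Of the genes tested in both settings, 2277 were higher in both, which is 61.7% of the calls in DMSO and 66.8% of those in XMU-MP1. A further 2342 were lower in both (64.5% and 65.6%), and 123 and 38 were called in opposite directions.

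The values below are log2 fold changes from the fit of all 12 libraries, first in DMSO and then in XMU-MP1. GRHL1 rose by 4.03 in DMSO and 1.74 in XMU-MP1, a difference of -2.29 ± 0.36 (SE, adjusted p = 0.0117). CEBPB, a factor of keratinocyte differentiation, had 1.82 and 0.08, a difference of -1.74 ± 0.33 (adjusted p = 0.0239). The rise of both was thus larger without the inhibitor. ZNF503, a zinc finger repressor, had 2.16 and -0.88 (difference -3.04 ± 0.34, adjusted p = 0.00389), and CDKN1B, which encodes p27, had 0.55 and -0.78 (difference -1.33 ± 0.26, adjusted p = 0.026). In DMSO CDKN1B was at 33.5, 38.2 and 32.0 CPM against 42.3, 60.7 and 50.7, a change called in the 6 libraries (adjusted p = 0.0287) but not without any one of them other than knockdown library a. CXCL1 had -2.11 and 0.37 (difference 2.48 ± 0.44, adjusted p = 0.0199), and ETV5 had -2.54 and -0.84 (difference 1.70 ± 0.29, adjusted p = 0.0161). DBF4, the partner of CDC7, fell in both settings, with -3.08 and -1.84 (difference 1.24 ± 0.24, adjusted p = 0.026). JUNB, an AP-1 subunit, rose in both, with 2.45 and 3.85 (difference 1.40 ± 0.30, adjusted p = 0.0353). DUSP2, a phosphatase of MAP kinases, had a larger effect in the inhibitor setting, with 0.78 and 7.51 (difference 6.73 ± 0.53, adjusted p = 0.000578), at 2.01, 1.45 and 1.49 CPM against 4.14, 1.96 and 2.67 in DMSO, where it was not called. KRT80, an epithelial keratin, had 1.44 and 5.14 (difference 3.70 ± 0.41, adjusted p = 0.00389). These 10 differences also passed in the fit of 11 libraries.

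**Figure D5:**
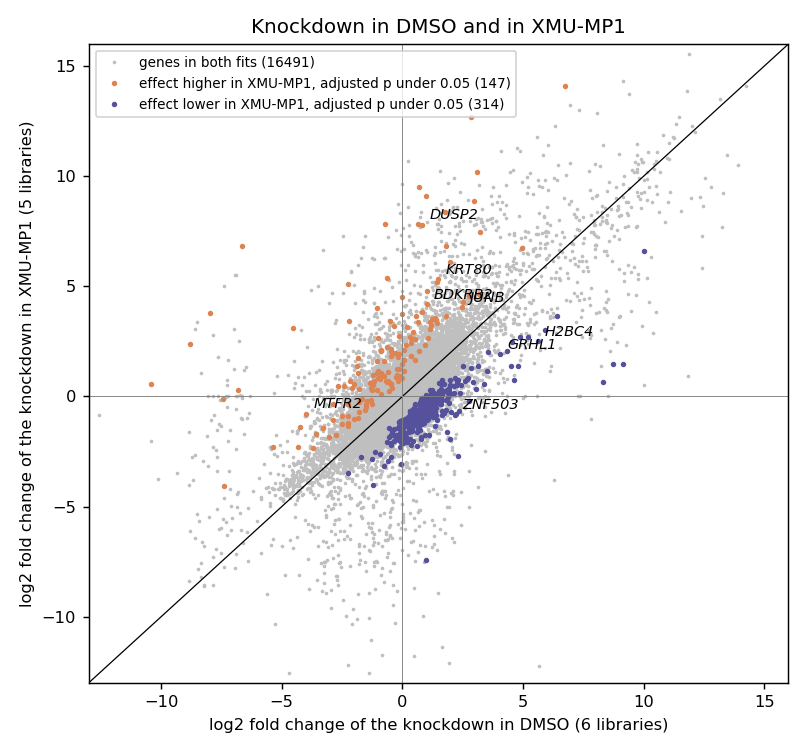
Each point is 1 of 16491 genes, with the log2 fold change of the knockdown in DMSO (6 libraries) on the x axis and in XMU-MP1 (5 libraries, without knockdown library c) on the y axis, and the line marks equal effects. Coloured genes differed between the settings in the 12-library test, 147 higher in XMU-MP1 (orange) and 314 lower (purple), and DUSP2 and KRT80 lie far above the line while GRHL1, H2BC4 and ZNF503 lie below it.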

How the data were processed

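Poly(A) RNA of MCF10A cells was sequenced as paired ends on a NovaSeq from a stranded kit, per the labels. The authors deposited, per the file headers, raw counts and FPKM values per gene for 12 libraries in 1 table with gene coordinates. The submitters' processing notes name cutadapt, FastQC, HISAT2, StringTie, edgeR and build GRCh38.p13. How reads were counted, and whether by strand, is not given in the sources used here, so antisense and overlapping genes (such as KRT8 and KRT18) and close gene copies (small proline-rich, KRT6, S100A7 and histone genes) may share reads. Groups came from the labels. Counts of the 6 DMSO libraries were fitted with edgeR 4.0.16 (filterByExpr, TMM scaling, quasi-likelihood, group means, two-sided) in R 4.3.3, and tested on simulated data. The spread estimate had 4 residual and 2.88 prior degrees of freedom. FPKM served for list shares only. A list could contribute 6 called genes by lowest adjusted p from its main direction, 3 from the other direction, and 2 uncalled genes of highest mean CPM. Further named genes were fixed (YAP1, WWTR1, TEADs, VGLLs, CCN1, CCN2, TP63, MYC, CDKN1A), the 12 largest rises and falls with a mean FPKM of at least 5, the 12 highest by FPKM per group, and genes with large differences between settings. The text shows a part of these. The members and lists were chosen with earlier results of these data known. Correlation of log counts across genes was 0.958 to 0.967 within control, 0.932 to 0.953 within knockdown and 0.829 to 0.854 between the groups. Promoters were matched by gene to the RefSeq table of GRCh38.p14, and 11736 of the tested genes had one. The floor for a gene at 0 is 3 counts per library and covers counting error only. Alternatives were other scalings, filters, DESeq2 1.42.0, limma 3.58.1, FPKM on a log2 scale with pseudocounts of 0.1 and 1, other sets of libraries, and leaving out each library.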

Additional observations from a re-analysis of the deposited data

Results flagged for a closer look

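The knockdown effect differed between XMU-MP1 and DMSO, by the test of the difference itself over 12 libraries, for 11 named genes. The differences on the log2 scale, XMU-MP1 minus DMSO, were 6.73 for DUSP2, 3.70 for KRT80, 2.48 for CXCL1, 1.70 for ETV5, 1.40 for JUNB and 1.24 for DBF4. They were -1.33 for CDKN1B, -1.74 for CEBPB, -2.29 for GRHL1, -3.04 for ZNF503 and -3.09 for H2BC4, a histone gene whose close copies make its count uncertain. Groups of 3 libraries are too small for a test of single outlying libraries.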

How the results depend on the processing

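No call changed sign in any of 19 other settings, and 5199 of the 7320 calls (71%) held whichever library was left out. Leaving out 1 library gave 2953 to 3599 genes higher and 2844 to 3661 lower, YAP1 at -4.62 to -4.25 and WWTR1 at -3.12 to -2.81 (log2). DESeq2 called 4149 genes higher and 4012 lower, limma-voom 3895 and 3906, no filter 3284 and 3603, and all 12 libraries 2929 and 2897. Values of log2(FPKM + 1) gave 2745 higher and 4714 lower, a lower split as with library totals, and the cause was not tested. The count of genes that differed between XMU-MP1 and DMSO was 470 and rose to 1006 without library c of the knockdown in XMU-MP1. In the last 120 bases the motif shares were 8.33% for the signature, 21.4% for the envelope and 5.56% for the proteases, a window that is shorter by construction. In that window 5.64% of all promoters held GGAATG and 3.31% held TGANTCA.

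Whether the letters a to c pair the libraries was not settled, since the 2 parts of the check gave different answers. The main fit took no account of the letters. The deviations of same-letter libraries correlated at 0.135, 0.075 and 0.074, 1 of 3 over 0.1, while for 6 of 6 the highest correlation was with the library of its own letter, a hint from the data and not the design. With the letter as a replicate block 3448 genes were higher and 3390 lower, and 471 differed between settings. Without knockdown library a, 2 of the TEAD partners rose, 2 epidermal proteases or inhibitors fell and LTF was called lower, against 1, 1 and no call with all libraries. SNAI2, not called and at 0.17 on the log2 scale, was at -0.077 with library totals, -0.11 with limma-voom, -0.13 and -0.20 on log2(FPKM + 1) and log2(FPKM + 0.1), and -0.26 to 0.55 over the fits that left out 1 library. The depth of 25246464 counts in the shallowest library limits what can be said of genes near 0.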

Other observations

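Long noncoding RNAs moved in both directions. Of 24 listed genes in the table, 23 were tested, 8 rose and 10 fell, against 22.4% and 22% of all genes tested. TINCR, a transcript of differentiating keratinocytes, was at 1.40, 0.908 and 0.621 CPM in control and 91.6, 103 and 71.5 in knockdown libraries (91.2-fold higher, adjusted p = 7.75e-05). NORAD, a binder of Pumilio proteins, was at 150.1, 124 and 123 CPM against 482, 576 and 504 (3.93-fold higher, adjusted p = 0.000108). SNHG1, a host gene of small nucleolar RNAs, was at 186, 122 and 134 CPM against 37.0, 44.0 and 39.1 (3.69-fold lower, adjusted p = 0.000358). None of the 3 overlapped between groups.

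Some genes went from no reads to a clear level. In all, 49 genes had 0 counts in the 3 control libraries and at least 1 CPM in each knockdown library, and 4 did the reverse. Among them SLC5A1, a sodium and glucose cotransporter, reached 50.6, 18.6 and 38.0 CPM, at least 791-fold above the floor of 3 counts per library. ACP5, an acid phosphatase of lysosomes, reached 11.9, 15.1 and 22.5 CPM, at least 365-fold above it. PKP1, a desmosomal plakophilin of stratified epithelia, reached 5.66, 3.88 and 4.20 CPM, at least 101-fold above it. TRIM63, a ubiquitin ligase known from muscle, was uneven, at 1.76, 3.84 and 32.3 CPM, with library c far above the other two.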
